A study of Homo sapiens with 8 samples.

Results

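YAP-TEAD target genes, with their regulators, were examined on 8 Affymetrix arrays of HEK293T, an established line derived from human embryonic kidney. The set was proposed as 10 genes, ANKRD1, CCN1, CCN2, AMOTL2, AMOTL1, LATS2, AJUBA, AXL, TEAD1 and YAP1, and each was looked up by its platform gene symbol in the deposited value table. A cluster was found for 8 of the 10 genes, among 14884 genes named on the platform. For CCN1 and LATS2 the annotation used here names no transcript cluster, so they were not analysed here. A transcript cluster is the group of probes that reads 1 gene or transcript on these arrays, and the 8 genes had 11 of them. Where a gene had several, the one with the highest mean over the 8 arrays was used. The members were chosen by values measured on all 8 of these arrays, so every level and difference of theirs is a description and carries no test.

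Lentiviral shRNA cells were on 3 arrays: a control clone (shControl) and 2 clones labelled as TET1 knockdowns, shTET1#1 and shTET1#2, whose shRNAs differ. The other 5 held cells sorted by fluorescence 3 days after transfection with an empty vector or with a plasmid for TET1-CD, mTET1-CD, TET1-FL or mTET1-FL. TET1 is a dioxygenase that oxidises 5-methylcytosine, the m marks its catalytically mutant form, and CD and FL are by the usual convention the catalytic domain and the full-length protein. Each plasmid, vector or clone had 1 array, each shRNA line was a single clone, and nothing in the labels names separate cultures or a hybridisation batch. Every value below is a log2 signal unless said otherwise, so a difference of 1 is 2-fold.

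YAP1 is the coactivator at the end of the Hippo pathway. The kinases of that pathway phosphorylate it and hold it in the cytoplasm, and when they are less active YAP1 and its paralog TAZ enter the nucleus and act through the TEAD factors, of which TEAD1 is one. ANKRD1, CCN1, CCN2 and AXL are well-known targets, and AMOTL2, LATS2 and AJUBA are targets whose products act back on the pathway. In HEK293 cells, as in other attached cells, density and attachment act on the pathway.

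The DNA before the transcript starts is shown first because TEAD factors bind DNA. Their binding at these genes was not measured here. RefSeq promoter sequences of build GRCh38.p14 were found for 8 of the 10 genes, LATS2 among them, in 11 entries, since AMOTL2, AJUBA and AXL have 2 annotated starts each. In the 250 bases before each start the TEAD motif was searched as GGAATG on both strands, where the opposite strand reads CATTCC. It was found in 6 of the 11 entries, against 11.9% of all 35116 promoter entries read the same way. These entries belong to 6 of the 8 genes, for which no background share by gene was taken. TEAD1 and CCN1 had no entry, so these 8 are not the 8 genes measured on the arrays. The set was proposed as TEAD targets, so nothing is read from the share. ANKRD1 and CCN2, the genes with the largest differences below, are printed over all 250 bases with the motif in capitals. They come from the minus strand at chr10:90921088-90921337 and chr6:131951373-131951622.
ANKRD1: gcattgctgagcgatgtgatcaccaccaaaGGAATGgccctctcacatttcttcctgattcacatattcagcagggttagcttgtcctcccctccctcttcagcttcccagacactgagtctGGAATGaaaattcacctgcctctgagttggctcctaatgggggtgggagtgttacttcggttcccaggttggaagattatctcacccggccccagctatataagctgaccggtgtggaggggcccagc
CCN2: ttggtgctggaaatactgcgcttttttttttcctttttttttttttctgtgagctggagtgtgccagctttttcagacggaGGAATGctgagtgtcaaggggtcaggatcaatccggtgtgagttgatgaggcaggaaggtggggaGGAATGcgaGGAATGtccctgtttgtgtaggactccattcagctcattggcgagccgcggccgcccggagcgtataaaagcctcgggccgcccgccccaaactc

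ANKRD1 held 2 matches, whose first bases lie 220 and 128 bases before the start. CCN2 held 3, beginning 169, 104 and 95 bases before the start. YAP1 and the downstream starts of AMOTL2, AJUBA and AXL held 1 match each. These are printed with 12 bases on either side, motif in capitals, so that the settings of the motif can be compared. The windows lie at chr11:102110273-102110302 on the plus strand for YAP1, chr3:134374499-134374528 on the minus strand for AMOTL2, chr14:22976884-22976913 on the minus strand for AJUBA and chr19:41226531-41226560 on the plus strand for AXL.
YAP1: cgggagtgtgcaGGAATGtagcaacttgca
AMOTL2: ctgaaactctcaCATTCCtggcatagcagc
AJUBA: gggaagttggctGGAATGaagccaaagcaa
AXL: cagactttgcacCATTCCactccctccgct

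In AMOTL2 and AXL the motif is on the opposite strand. The upstream starts of AMOTL2, AJUBA and AXL, and the single starts of AMOTL1 and LATS2, held no match. The AP-1 motif TGANTCA, searched on both strands and overlapping no TEAD match, was found in ANKRD1 alone, once, against 6.57% of all entries. The CArG box of serum response factor was found in none of the 11, against 1.16% of all entries. The number of CpG sites, where TET1 acts, ran from 0 before the upstream start of AMOTL2 to 36 before YAP1, with a median of 11 over all entries. ANKRD1 had 4 and CCN2 had 13, while AMOTL1 had 28 and the downstream start of AMOTL2 had 29. The 2 genes with the largest differences thus lay below and slightly above that median.

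**Figure D1:**
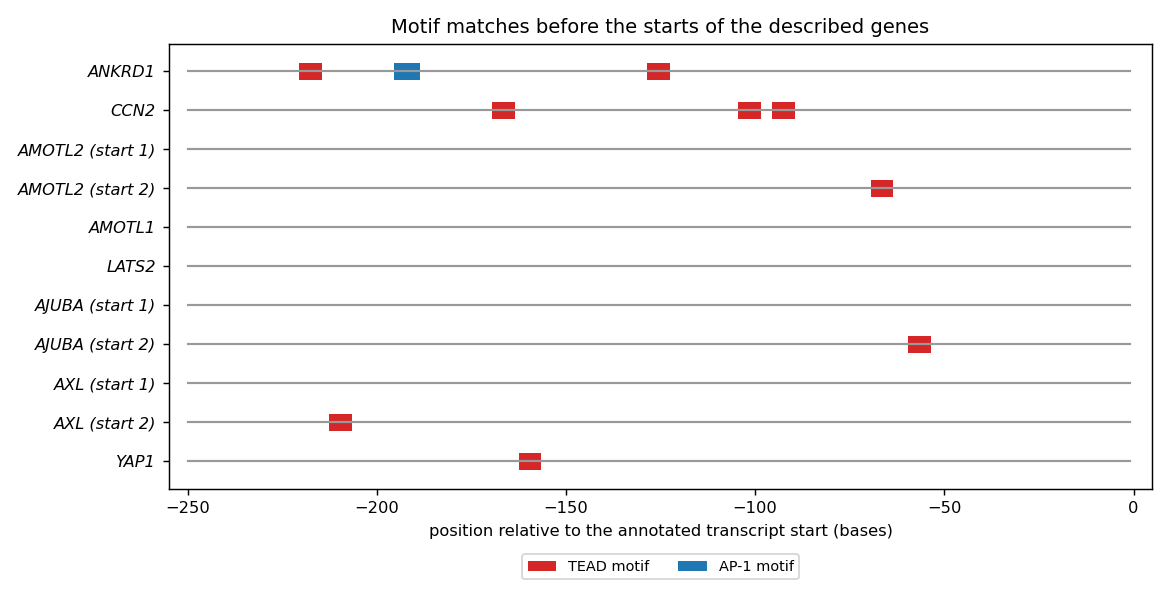
Positions of the TEAD motif (red) and the AP-1 motif (blue) in the 250 bases before each of the 11 annotated starts, in bases relative to the start. ANKRD1 holds 2 TEAD matches and 1 AP-1 match, CCN2 holds 3 TEAD matches, and AMOTL1 and LATS2 hold none.

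Array medians lay between 5.466 and 5.552, and clusters exceeding the array's own median on 2 or more of the 8 arrays were kept, 28946 of 53617. All 8 genes were kept, but ANKRD1 only through the arrays on which it is high, TET1-FL and mTET1-FL. The 3 spare clusters of CCN2, AMOTL1 and YAP1 lay below the median on every array and were not kept. Of 7 markers of the HEK293 line, 4 had a cluster (LIN28B, PAX2, EYA1 and VIM), all above the median on all 8 arrays. Of 13 markers of fibroblasts, blood, liver and endothelium, 6 had a cluster, and DCN, LUM, ALB, PECAM1 and VWF were below the median on every array, APOA1 above it on every one. The summed level of the measured HEK293 markers ran from 30.6 to 32.5 over the arrays and that of the other cell types from 26.5 to 28.7. EYA1 moved with the groups, at 6.31 in the control clone, 7.66 to 8.34 on 5 arrays and 8.65 on both FL arrays, and its part in the results was not tested. TET1 has 2 clusters, which order the constructs differently. In cluster 16705381 the FL arrays were highest, at 12.22 and 12.47, against 10.42 and 11.05 in the CD arrays and 8.62 to 9.51 elsewhere. In cluster 16715048 the CD arrays were highest, at 12.10 and 12.03, against 11.80 and 11.91 in the FL arrays. The clone labelled shTET1#2 stood at 9.14 in the first, against 9.29 for the control clone, and above the control in the second, where the control clone read 5.71. Only shTET1#1 was below the control in both (8.62 and 5.27), so the second clone is named by its label throughout.

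The clearest difference lay between the FL and the CD constructs. ANKRD1 was higher with FL than with CD by 1.73 on the log2 scale, from CD signals below the array medians, so no fold is given for it. CCN2 was 1.61-fold higher and AMOTL2 1.26-fold, with the same direction in wild type and mutant. In bulk RNA, fewer cells with a transcript and less of it per cell cannot be told apart. YAP1 was 1.12-fold higher, whereas AJUBA, TEAD1 and AXL were lower with FL. Wild type and mutant differed by at most 0.24 in the fit in any of the 8 genes, and by at most 0.35 within 1 construct. Each TET1 shRNA clone stood within 0.34 of the control clone.

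ANKRD1 encodes an ankyrin repeat protein of muscle and stressed cells that is among the most responsive YAP targets. Its signal was 4.43 for shControl, 4.33 for shTET1#1, 4.50 for the clone labelled shTET1#2, 5.01 for vector, 5.12 for TET1-CD, 5.09 for mTET1-CD, 6.84 for TET1-FL and 6.84 for mTET1-FL. The FL arrays were thus alone above the array median, and the shRNA arrays were the lowest. The lower FL array exceeded the highest of the other 6 by 1.72, while those 6 spanned 0.79 among themselves. Within the wild type FL exceeded CD by 1.72 and within the mutant by 1.75, and the FL arrays differed from each other by 0.0017. The other 6 values lie below the array medians. The fitted difference was 1.73 ± 0.13 (SE), a description of these signals.

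CCN2, also known as CTGF, is a secreted matrix-associated protein. Its signal was 5.85 for shControl, 5.99 for shTET1#1, 5.83 for the clone labelled shTET1#2, 6.16 for vector, 6.14 for TET1-CD, 5.79 for mTET1-CD, 6.72 for TET1-FL and 6.59 for mTET1-FL. Both FL arrays lay above the other 6, the lower of them by 0.43, and the lowest of the 6 was mTET1-CD. FL exceeded CD by 0.58 in the wild type and by 0.79 in the mutant, and the fitted difference was 0.68 ± 0.14 (SE). The spare CCN2 cluster, 17118180, lay between 2.01 and 3.19, with mTET1-FL lowest, so it did not show the FL excess. At that level it lies far below the medians, and its fitted FL minus CD difference was -0.33.

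AXL, a receptor tyrosine kinase, is the third classical target measured. Its signal was 5.43 for shControl, 5.60 for shTET1#1, 5.71 for the clone labelled shTET1#2, 5.81 for vector, 5.76 for TET1-CD, 5.84 for mTET1-CD, 5.68 for TET1-FL and 5.68 for mTET1-FL. The control clone was the lowest and the only array on which AXL lay below the median, and the FL arrays lay within the range of the others. FL minus CD was -0.12 ± 0.13 (SE), so the difference was no larger than its error.

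AMOTL2, an angiomotin that binds YAP1 and holds it at junctions, went the same way as ANKRD1 and CCN2 with a smaller size. Its signal was 6.35 for shControl, 6.13 for shTET1#1, 6.50 for the clone labelled shTET1#2, 6.57 for vector, 6.54 for TET1-CD, 6.50 for mTET1-CD, 6.88 for TET1-FL and 6.83 for mTET1-FL. Both FL arrays were above the other 6, by 0.26 or more. All 5 transfected arrays were above the 3 shRNA arrays, though mTET1-CD (6.501) barely exceeded the clone labelled shTET1#2 (6.495). FL exceeded CD by 0.34 in the wild type and by 0.33 in the mutant, and the fit gave 0.34 ± 0.17 (SE). Its paralog AMOTL1 did not show this. The AMOTL1 signal was 7.65 for shControl, 7.52 for shTET1#1, 7.57 for the clone labelled shTET1#2, 7.91 for vector, 7.53 for TET1-CD, 7.74 for mTET1-CD, 7.77 for TET1-FL and 7.65 for mTET1-FL. The vector was the highest array, and FL and CD overlapped, with a fitted difference of 0.076 ± 0.14 (SE).

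AJUBA, a LIM protein that binds the LATS kinases, was highest with CD instead. Its signal was 6.58 for shControl, 6.62 for shTET1#1, 6.24 for the clone labelled shTET1#2, 6.59 for vector, 6.98 for TET1-CD, 6.86 for mTET1-CD, 6.66 for TET1-FL and 6.62 for mTET1-FL. Both CD arrays lay above the other 6, a pattern whose share over all clusters was not taken. The clone labelled shTET1#2 was the lowest. FL minus CD was -0.32 in the wild type and -0.25 in the mutant, with a fitted value of -0.28 ± 0.17 (SE).

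TEAD1, the DNA-binding partner, varied little. Its signal was 8.60 for shControl, 8.47 for shTET1#1, 8.49 for the clone labelled shTET1#2, 8.52 for vector, 8.50 for TET1-CD, 8.60 for mTET1-CD, 8.35 for TET1-FL and 8.31 for mTET1-FL. The FL arrays were the lowest of the 8, by 0.12 or more, and the fitted FL minus CD difference was -0.22 ± 0.12 (SE). YAP1 varied least, with a range of 0.23. Its signal was 7.02 for shControl, the clone labelled shTET1#2, vector and TET1-CD alike, 6.96 for shTET1#1, 7.04 for mTET1-CD, 7.20 for TET1-FL and 7.19 for mTET1-FL. The FL arrays were the highest, by 0.15, and the fit gave 0.16 ± 0.12 (SE). The 4 YAP1 values at 7.02 were identical to the last digit deposited, as were both FL values of AXL, and 26.0% of the clusters kept hold the same value on at least 2 arrays.

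**Figure D2:**
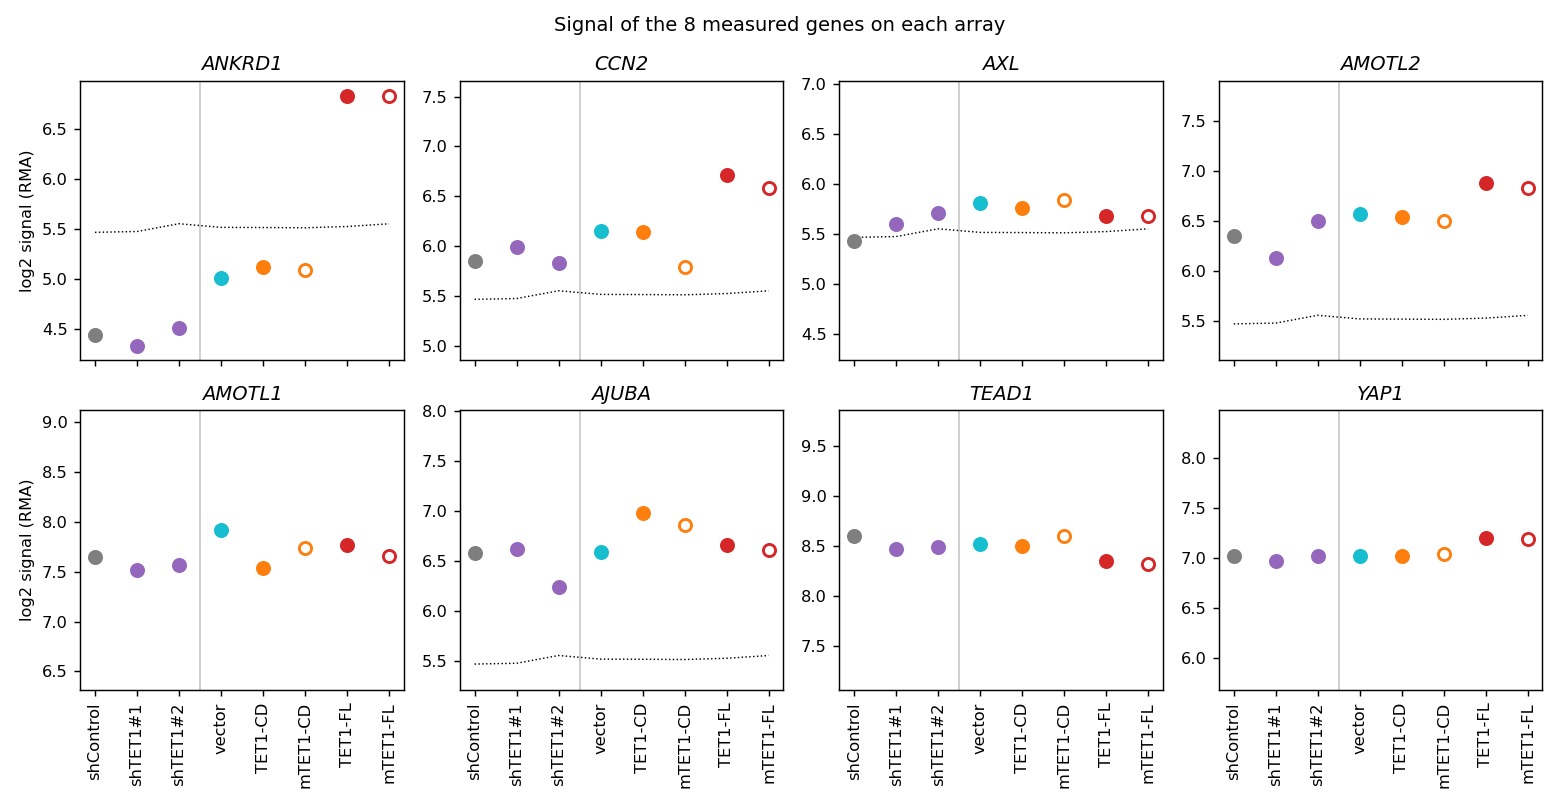
Log2 signal (RMA) of the 8 genes on each of the 8 arrays, 1 point per array, with open points for mutant TET1, red for FL and orange for CD. Each panel spans the same 2.8 log2 units, and the dotted line is the array median where it falls in the panel. ANKRD1 stands at 6.84 on both FL arrays and at 5.12 or less on the other 6.

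Counted over the 8 genes, both FL arrays lay above all 6 others in 4 (ANKRD1, CCN2, AMOTL2 and YAP1) and below all 6 in 1 (TEAD1). Over all 28946 clusters kept, 17386 of them without a gene name, these shares were 10.3% and 7.60%. FL was at least 2-fold above CD in the wild type and in the mutant in 1 of the 8 genes, ANKRD1, and in 1.03% of all clusters, and at least 2-fold below in none of the 8 and in 0.0898% of all clusters. The genes were chosen with these values known, so nothing is read from the shares. The median FL minus CD difference of the 8 genes was 0.12, against 0.0031 over all clusters. It was 0.21 in the wild type and 0.031 in the mutant, where AMOTL1 had opposite signs, 0.24 and -0.086. The FL arrays had the highest TET1 signal in 1 of its 2 clusters and the CD arrays in the other. The FL arrays correlated with each other at r = 0.985 across the clusters kept, and the CD arrays at r = 0.988. The lowest correlation of any pair of arrays was 0.932. Each construct was measured on its own pair of arrays, so construct, amount of TET1 transcript and any shared handling cannot be told apart.

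**Figure D3:**
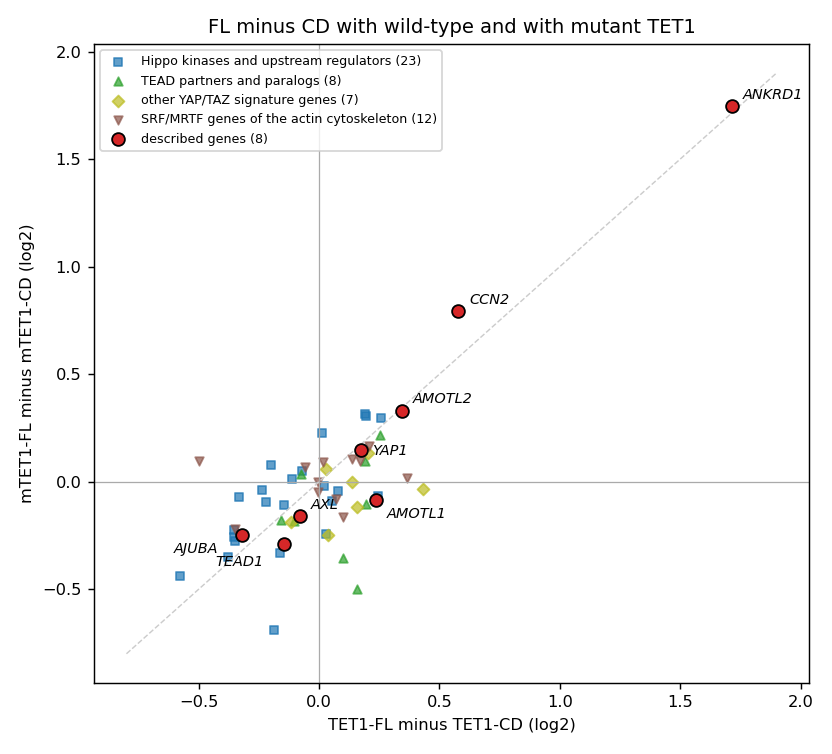
FL minus CD difference with wild-type TET1 (horizontal, log2) and with mutant TET1 (vertical, log2), 1 point per gene, for the 8 genes (red) and for 4 other lists of pathway genes. The dashed line marks equal differences, and ANKRD1 (1.72 and 1.75) and CCN2 (0.58 and 0.79) are the highest on both axes. On the negative side AMOT (-0.58 and -0.44) is lowest on the horizontal axis and NF2 (-0.19 and -0.69) on the vertical.

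Against the vector, the 4 TET1 plasmids differed among themselves more than the set as a whole did. ANKRD1 stood above the vector by 0.11 with TET1-CD, by 0.079 with mTET1-CD and by 1.83 with each FL protein, where the vector and CD signals lie below the array medians. The mean over the 4 plasmids was 0.96 ± 0.15 (SE), almost all of it from FL. CCN2 stood at -0.016 and -0.36 from the vector with wild-type and mutant CD, and at 0.56 and 0.43 with FL, so its mean of 0.15 ± 0.15 (SE) joins opposite signs. AMOTL1 was below the vector with all 4 plasmids, by 0.38 and 0.17 with CD and by 0.14 and 0.26 with FL, and its mean was -0.24 ± 0.16 (SE). AJUBA was above the vector by 0.39 and 0.28 with CD but by only 0.070 and 0.027 with FL. All 4 plasmids lay above the vector in 2 of the 8 genes (ANKRD1 and AJUBA), against 27.2% of all clusters, and below it in 1 (AMOTL1), against 27.2%. These shares of 25.0% and 12.5% do not exceed the background, and the single vector array enters every difference.

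Wild-type minus mutant TET1 asked what goes with catalytic activity. CCN2 had the largest difference of the 8, with the wild type above the mutant by 0.35 in CD and 0.13 in FL (0.24 ± 0.14, SE). For ANKRD1 the values were 0.030 and -0.0017, and for YAP1 -0.018 and 0.0087, all within the SE of the fit (0.13 and 0.12). AMOTL1 stood at -0.21 in CD and 0.12 in FL, opposite in sign. The wild type was above the mutant in both constructs in 3 of the 8 genes (CCN2, AMOTL2 and AJUBA), against 25.0% of all clusters, and below in none, against 23.0%. With 1 array on each side of each pair, the differences of AMOTL2 (0.035 and 0.048) and AJUBA (0.11 and 0.043) have no replicate behind them and are smaller than their SE in the fit (0.17 each).

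The TET1 shRNA clones were set against the control clone, with the TET1 signal of the second clone as given above. The farthest of the 8 genes from the control in either clone was AJUBA, at 1.26-fold. AXL was above the control in both clones, by 0.17 in shTET1#1 and 0.28 in the clone labelled shTET1#2 (0.22 ± 0.15, SE). TEAD1 was below it in both, by 0.13 and 0.11, and AMOTL1 by 0.12 and 0.077. AJUBA was 0.34 below the control in the clone labelled shTET1#2 and 0.039 above it in shTET1#1, and AMOTL2 went from -0.23 in shTET1#1 to 0.14 in the other clone. For these genes the clones differed by 0.38 and 0.37, more than either differed from the control. ANKRD1 and CCN2 had fitted differences of -0.017 ± 0.16 and 0.059 ± 0.17 (SE). Both clones lay above the control in 1 of the 8 genes, against 29.4% of all clusters, and below it in 2, against 33.1%, shares no larger than the background.

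**Figure D4:**
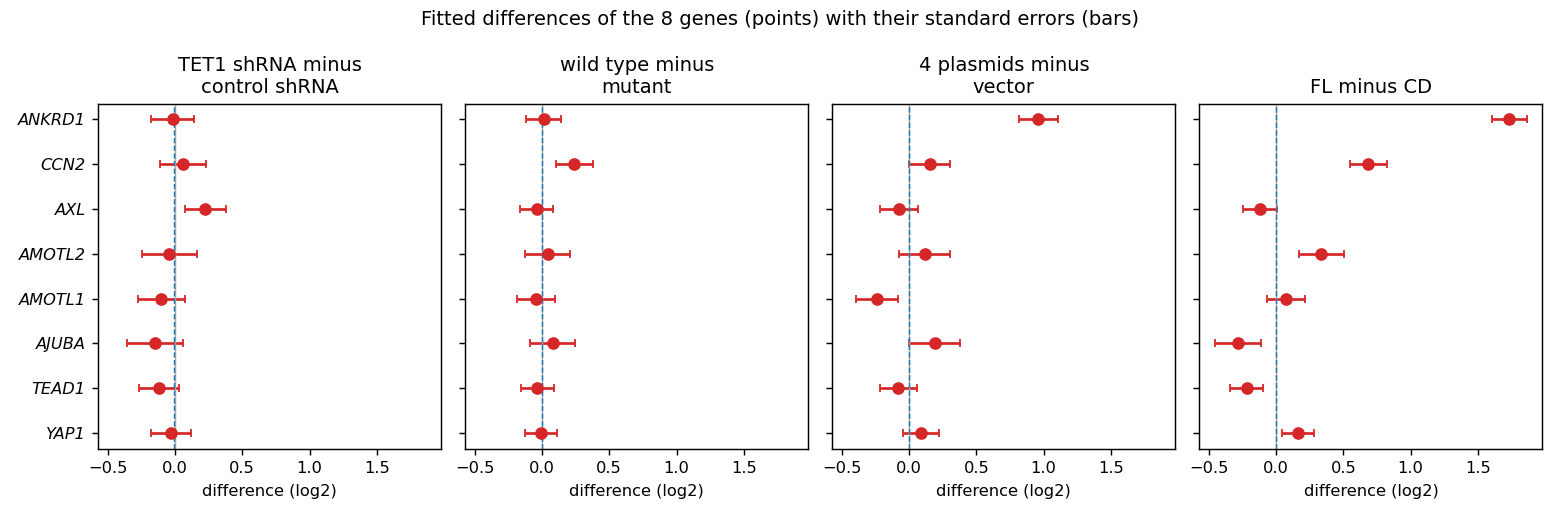
Differences of the 8 genes fitted with limma on all 8 arrays (points, log2) with their standard errors (bars), for the 4 comparisons. The blue dashed line is the median of all clusters kept, and the points farthest from it are ANKRD1 for FL minus CD (1.73) and for plasmids minus vector (0.96).

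Transfected and lentiviral arrays also stood apart for some members, a contrast in which the kind of vector, the sort and the clonal origin all differ and cannot be told apart. ANKRD1 averaged 5.78 on the 5 transfected arrays and 4.42 on the 3 shRNA arrays, and even the vector array, at 5.01, lay above the highest shRNA array. AMOTL2 averaged 6.66 and 6.32, also with no overlap but nearly tied at the edge. Its lowest transfected array, mTET1-CD, read 6.501 and its highest shRNA array, the clone labelled shTET1#2, read 6.495. All 5 transfected arrays lay above the 3 shRNA arrays in these 2 of the 8 genes, against 8.18% of all clusters, and below them in none, against 7.67%. CCN2 averaged 6.28 and 5.89 but overlapped through mTET1-CD, which was the lowest array of the 8. TEAD1 was the only gene of the 8 with the lower mean on the transfected arrays, at 8.46 against 8.52.

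Limma called 0% of the 28946 clusters at an adjusted p under 0.05 in each of the 4 comparisons, with 3975 clusters at an unadjusted p under 0.05 for FL minus CD, 4352 for plasmids minus vector, 2294 for the TET1 shRNA clones minus the control and 567 for wild type minus mutant. The 2 residual degrees of freedom come from the gap separating both TET1 clones and from how wild type minus mutant differed between constructs, not from replicate cultures. The SEs above combine that spread of the gene with a spread that limma shares over all clusters kept. The shared part carries 2.89 degrees of freedom, so an SE is not the spread of that gene alone. The number of arrays limits every one of them.

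The other genes of the Hippo pathway were read in the same way. Of 27 kinases and upstream regulators, 24 had a cluster and 23 were kept, and 0 passed in either direction in any of the 4 comparisons. Since 0% of all clusters passed, the 0 here and in each list below says nothing about these genes in particular. The 23 had a median FL minus CD difference of -0.11, against 0.0031 over all clusters. Of the 23, 16 lay below 0, where 50.5% of all clusters lay above 0. Both FL arrays lay above the other 6 in 0 of the 23 and below them in 6, namely AMOT, STK4, WWC1, MAP4K5, MINK1 and LIMD1, named after their values were seen, where the shares over all clusters were 10.3% and 7.60%. AMOT, the founding angiomotin, had the widest range of the list. Its signal was 11.05 for shControl, 10.83 for shTET1#1, 11.61 for the clone labelled shTET1#2, 10.14 for vector, 10.15 for TET1-CD, 10.16 for mTET1-CD, 9.57 for TET1-FL and 9.72 for mTET1-FL. It was thus highest in the shRNA clones and lowest with FL, the reverse of its paralog AMOTL2, and its FL minus CD difference was -0.51. RASSF1, a scaffold of the MST kinases, ran from 5.94 in the control clone to 7.03 with TET1-CD and was 0.58 higher with the plasmids than with the vector. MAP4K4, a kinase that acts on LATS, ran from 7.17 with the vector to 7.99 in the control clone.

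The STRIPAK phosphatase complex, which opposes the MST kinases, had 3 of 10 genes measured and kept, 0 of them passing. FGFR1OP2 ran from 6.80 in shTET1#1 to 7.93 with TET1-FL, while SLMAP and SIKE1 spanned 0.54 and 0.20. Both FL arrays lay below the other 6 in SIKE1 alone of the 3, against 7.60% of all clusters. All 8 TEAD partners and paralogs were kept and 0 passed, with a median FL minus CD difference of -0.074 and neither FL pattern in any of them. Over all clusters both FL arrays lay above the others in 10.3% and below them in 7.60%. VGLL4, a competitor of YAP1 for TEAD, was highest in shTET1#1 at 7.54 and lowest with TET1-CD at 6.59. VGLL1 was lowest with mTET1-FL at 5.35, and VGLL3 likewise at 6.46. WWTR1, which encodes TAZ and was chosen after its values were seen, stood at 7.26 and 7.32 with FL and at 7.42 and 7.50 with CD, an order opposite to that of YAP1.

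Other targets in a published YAP/TAZ signature were less often measured, with 8 of 16 genes having a cluster and 7 kept. None of the 7 passed in any comparison, as none of all clusters did. Both FL arrays lay above the other 6 in 0 of them, against 10.3% of all clusters. They lay below in 1, against 7.60%, namely DOCK5, whose values ran from 6.48 with mTET1-FL to 7.44 in shTET1#1. MYOF, a membrane repair protein, ran from 5.28 with the vector to 6.00 with TET1-FL. FJX1 ran from 7.39 with TET1-CD to 8.07 in the control clone. The median FL minus CD difference of the 7 was 0.044. The other CCN genes, relatives of CCN2, had 4 clusters, 3 of them kept, and CCN4, CCN5 and CCN6 stood at -0.23, -0.09 and -0.17 in the same comparison. None of the 3 had both FL arrays above the others, against 10.3% of all clusters.

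ANKRD1 and CCN2 also respond to serum response factor and its MRTF coactivators, so genes of the actin cytoskeleton were read alongside. Of 19 such genes 12 had a cluster and were kept, and 0 passed. Their median FL minus CD difference was 0.0017, with 6 above 0 and 6 below, where 50.5% of all clusters lay above 0. Both FL arrays lay above the other 6 in 1, the coactivator gene MRTFA, and below in 1, its paralog MRTFB, both named after their values were seen. Over all clusters these shares were 10.3% and 7.60%. CNN2 ran from 7.50 in the control clone to 8.51 with the vector, TPM1 from 6.76 with TET1-CD to 7.69 in the control clone, and ZYX from 7.41 in the clone labelled shTET1#2 to 8.26 with the vector. None of these 3 had an extreme on an FL array, but others of the list did. MRTFA was highest and MRTFB and TPM2 lowest with TET1-FL, and VCL and FHL2 were lowest with mTET1-FL. These genes too were named after their values were seen.

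The genes whose pattern over the 8 arrays was nearest to that of ANKRD1 and CCN2, the 2 members with the largest SD, were found by the root-mean-square distance after centring each gene on its own mean, among 11559 other named clusters. For ANKRD1 they were COX6A1 (distance 0.30), LOC100272217 (0.31), the stress-induced transcription factor gene DDIT3 (0.34), ARRDC3 (0.34) and the vault RNA gene VTRNA1-3 (0.35), where the median distance was 0.96. ANKRD1 had a larger FL minus CD difference, at 1.73, than any of these, which had 0.99 to 1.53. For CCN2 they were SERTAD3 (0.095), the immediate early gene IER3 (0.10), AFDN-DT (0.11), CCDC28A (0.11) and RSRP1 (0.11), with a median distance of 0.37. SERTAD3 exceeded CCN2 in FL minus CD, at 0.75 against 0.68, and RSRP1 had 0.48. No member of the set was among either list, and the arrays are shared by all these genes. Across the 8 genes themselves the smallest distance was that of AMOTL1 and YAP1, at 0.13, and the largest that of ANKRD1 and TEAD1, at 1.03. Genes were not scaled for their spread, so 2 genes that vary little lie close whatever their patterns.

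**Figure D5:**
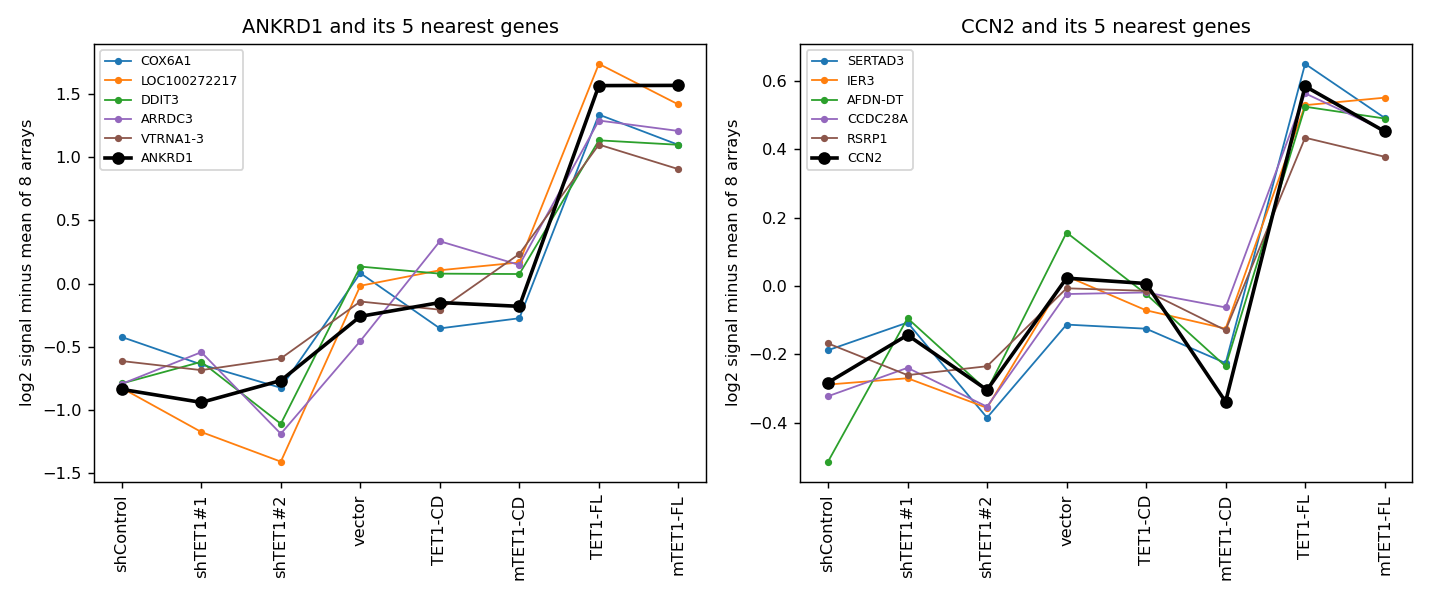
Log2 signal of ANKRD1 (left) and CCN2 (right), in black, and of the 5 nearest genes of each, with every gene centred on its mean over the 8 arrays. Lines only join the values of 1 gene, and in each panel all 6 genes are highest on the TET1-FL and mTET1-FL arrays.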

How the data were processed

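Total RNA from 8 samples was amplified, biotin-labelled and hybridised to Affymetrix arrays, per the labels' protocols. The deposited values are log2 signals, and RMA in Expression Console 1.3.1 is listed in the submitters' processing notes, with the order of steps not given. Rows without a value (364 of 53981) were dropped. Gene names came from the platform annotation, whose 16098 named clusters were all found by gene number in a RefSeq table of GRCh38.p14. Clusters were kept where at least 2 arrays lay above their own median. All 8 arrays were fitted with limma 3.58.1 (R 4.3.3), with terms for control shRNA, TET1 shRNA, vector, wild type, mutant and construct, and p-values were Benjamini-Hochberg adjusted with a threshold of 0.05. The fit was tested on simulated data with planted differences larger than any of the 8 genes showed. That test therefore says nothing about differences of the sizes given here. The members and lists were chosen with earlier results of these data known. Named genes are the members, TET1, the 3 kept genes of each list with the widest range, the 5 nearest patterns of 2 members, and a few marked in the text as named after their values were seen. Alternatives were no filter, cyclic loess, median centring, the lowest-mean cluster per gene, other controls and subsets of arrays.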

Additional observations from a re-analysis of the deposited data

Results flagged for a closer look

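CCN2 and AMOTL2 had both CD arrays below the vector and both FL arrays above it. CCN2 averaged -0.19 from the vector with CD and 0.50 with FL, a gap of 0.68. AMOTL2 averaged -0.053 and 0.28, a gap of 0.34. These genes were chosen with the values known, so no test is given for them, and limma called 0 clusters for FL minus CD. The same vector array enters both values.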

How the results depend on the processing

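For the 8 genes, 205 of 224 single-gene differences under the alternatives moved by no more than the SE of the fit on all 8 arrays, and 19 moved by more. None moved by more than that SE without the filter, with cyclic loess, with median centring, or without either TET1 shRNA clone, although AMOTL2 and AJUBA moved by more than the smaller SE of the fits without a clone (0.13). With the vector as the control the median difference of the TET1 shRNA clones was -0.20 in place of -0.034. With the lowest-mean cluster per gene, which takes clusters below the array medians for CCN2, AMOTL1 and YAP1, the median plasmid minus vector difference was -0.076 in place of 0.10. Median centring brought 1 cluster, of TET1, past the limma threshold for plasmids minus vector. The FL patterns held the same genes under cyclic loess and median centring, both added for these counts after seeing the data. Under these scalings YAP1 joined the genes with all 4 plasmids above the vector, AJUBA left them under median centring, and ANKRD1 joined those with the wild type above the mutant. Median centring raised the members with both clones below the control from 2 to 4. Leaving out shTET1#1 turned the sign of the clone minus control difference of ANKRD1 (0.070), CCN2 (-0.021) and AMOTL2 (0.14), and leaving out the clone labelled shTET1#2 that of AJUBA (0.039). YAP1 in wild type minus mutant turned sign with median centring (0.0078). The lowest-mean cluster gave CCN2 an FL minus CD difference of -0.33 and the 8 genes a median of -0.016. Signals below the median, as for ANKRD1 on 6 arrays, limit fold changes, and 1 array per condition limits every comparison.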
